A study of Mus musculus with 12 samples.

Results

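The 10 genes described here encode the machinery that shows peptides on MHC class I molecules, followed in mouse oesophageal epithelium with active IKKβ, with loss of Stat3, or with both. They were taken by name from the count files: H2-K1, H2-D1, B2m, Tap1, Tap2, Tapbp, Psmb8, Psmb9, Psmb10 and Nlrc5, 10 of 23337 gene symbols. All 10 passed the filter on low counts that left 14134 genes for testing. RNA was taken from C57BL/6 mice aged 6 weeks, after the epithelium had been separated mechanically from the stroma, and polyadenylated RNA was sequenced in 12 libraries, 3 a group. The Combined group carried ED/L2-Cre, the ROSA26-StopFL-Ikk2ca allele and Stat3L/L. The Active IKKβ group carried ED/L2-Cre and the Ikk2ca allele, with no floxed Stat3 in its label. The Stat3 loss group carried ED/L2-Cre and Stat3L/L. The Control group carried the Ikk2ca allele and Stat3L/L without Cre, so each comparison with Control also differs in Cre. The ED/L2 promoter, of viral origin, drives Cre in squamous epithelium. The labels do not say whether the 3 libraries of a group came from separate mice, so the p-values measure the spread between these libraries, which may be technical.

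Class I molecules consist of a polymorphic heavy chain and the invariant light chain β2-microglobulin, and present peptides from inside the cell to CD8+ T cells. The proteasome cuts the peptides, TAP carries them into the endoplasmic reticulum, and tapasin holds the empty heavy chain beside TAP until a peptide is bound. NF-κB binds an upstream enhancer of many class I genes, interferon signalling acts through a neighbouring element, and NLRC5 drives several of these genes, among them heavy chains and B2m, as the class I counterpart of the class II transactivator. Nearly all nucleated cells express class I genes, and leukocytes do so at high level.

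Both heavy chain genes and 5 of the other members lie on chromosome 17, within the MHC (mm10, GENCODE M21). H2-K1 spans chr17:33996017-34000347 on the minus strand and H2-D1 chr17:35262730-35267499 on the plus strand. Between them lie Psmb9 (chr17:34181987-34187764, minus strand), Tap1 (chr17:34187553-34197225, plus strand), Psmb8 (chr17:34197721-34201454, plus strand) and Tap2 (chr17:34203527-34216321, plus strand), and Tapbp lies outside that interval at chr17:33915899-33929292, plus strand. B2m is at chr2:122147686-122153083, plus strand, Psmb10 at chr8:105935735-105938444, minus strand, and Nlrc5 at chr8:94434356-94527272, plus strand. Tap1 and Psmb9 share 212 exonic bases on opposite strands, and the counting strand is not given in the sources used here, so reads there cannot be told apart. Tapbp shares 149 exonic bases with Zbtb22 on the same strand. Tap2 shares 533 exonic bases with Gm15821 and Psmb8 498 with Gm20496, on opposite strands, and neither Gm gene is in the count files. Of the 50-base windows of the longest H2-K1 transcript, 8.79% also occur in other class I genes, as do 14.3% of those of H2-D1. The share found in any other gene was 21.0% for Tapbp, 12.6% for Tap2, 12.5% for Psmb9, 6.47% for Tap1 and 5.83% for Psmb8. Counts of these 7 genes may be uncertain, but the shares do not measure by how much. Gm20496, the only gene sharing windows with Psmb8, is absent from the count files. So are Gm15821 and Gm19412, which shared the most windows with Tap2 and Tapbp.

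The upstream sequences below are shown because NF-κB is the factor that IKKβ releases and the enhancer of class I promoters is where it is known to bind. They are the 250 bases before the start of the RefSeq transcript (GRCm38.p6), 5′ to 3′ on the strand of the gene, at chr17:34000348-34000597 (minus) for H2-K1, chr17:35262844-35263093 (plus) for H2-D1 and chr2:122147437-122147686 (plus) for B2m. The last entry is the 225-base stretch between the RefSeq starts of Tap1 and Psmb9 at chr17:34187331-34187555, given on the plus strand, from which both genes are read in opposite directions. In GENCODE M21 the Psmb9 gene extends over it. Capitals mark, on either strand, the κB pattern GGGNNTTCC, also with 1 further N in its middle, the interferon regulatory factor (IRF) core AANNGAAA and the CCAAT box.
H2-K1: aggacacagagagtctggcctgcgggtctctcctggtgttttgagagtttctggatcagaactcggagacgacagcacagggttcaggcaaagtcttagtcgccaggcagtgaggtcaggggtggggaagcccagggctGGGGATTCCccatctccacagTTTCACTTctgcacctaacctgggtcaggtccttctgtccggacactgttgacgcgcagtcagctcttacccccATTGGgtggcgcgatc
H2-D1: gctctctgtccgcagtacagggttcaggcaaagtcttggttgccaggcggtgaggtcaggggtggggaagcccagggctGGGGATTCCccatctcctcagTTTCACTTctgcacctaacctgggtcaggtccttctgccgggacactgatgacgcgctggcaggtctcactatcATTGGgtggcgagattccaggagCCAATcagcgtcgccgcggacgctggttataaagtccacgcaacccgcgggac
B2m: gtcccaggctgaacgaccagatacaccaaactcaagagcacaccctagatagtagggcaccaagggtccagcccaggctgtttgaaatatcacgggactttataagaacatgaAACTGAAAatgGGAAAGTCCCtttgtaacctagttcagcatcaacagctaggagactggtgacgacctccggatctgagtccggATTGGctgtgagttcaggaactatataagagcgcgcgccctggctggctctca
Tap1-Psmb9: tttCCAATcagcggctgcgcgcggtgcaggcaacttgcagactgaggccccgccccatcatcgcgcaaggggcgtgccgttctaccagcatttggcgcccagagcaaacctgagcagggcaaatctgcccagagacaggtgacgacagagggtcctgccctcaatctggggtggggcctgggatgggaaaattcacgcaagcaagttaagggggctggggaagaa

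The H2-K1 and H2-D1 stretches aligned over 177 columns, with 161 identical, 91.0%. Both held the same κB letters, GGGGATTCC, followed by the same IRF core letters on the opposite strand. In H2-K1 the κB pattern began at -111 and the IRF core at -90 from the RefSeq start. In H2-D1 they began at -171 and -150. B2m held a κB pattern at -126 and an IRF core at -137. RefSeq promoters were matched for 8 of the 10 members, all except Tap2 and Nlrc5. Of these 8, the κB pattern was found in 3 (H2-K1, H2-D1 and B2m), against 8.2% of 27025 promoters of the same length. The IRF core was found in the same 3, against 21.6%, and the CCAAT box in 6, against 34.5%. The windows of Tap1 and Psmb9 overlap, and their CCAAT match is 1 and the same box, so it counts for both genes among the 6. The STAT pattern TTCNNNGAA was found in 1, Psmb8, against 7.2%. A match is a description of letters, not of a bound site.

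Sequencing depth was 14816468 to 30188363 counts per library, and levels are given as CPM (counts relative to the library's total after TMM scaling). Stat3 had 153.9 to 194.1 CPM in Combined, 158.5 to 239.1 in Active IKKβ, 139.0 to 153.8 in Stat3 loss and 157.4 to 179.0 in Control. The labels do not give the deleted exons, so a count over the whole gene is no check of the deletion. Ikbkb, which encodes IKKβ, had 83.4 to 97.0 CPM in Combined, 84.6 to 97.7 in Active IKKβ, 61.2 to 72.4 in Stat3 loss and 59.7 to 82.6 in Control. The 5 squamous markers Krt5, Krt14, Trp63, Krt4 and Krt13 varied widely within each group. Together they reached 135400, 51310 and 159000 CPM in Combined and 63040, 174600 and 153500 CPM in Active IKKβ. Their sums were 69420, 78420 and 123500 CPM in Stat3 loss and 64240, 78620 and 173000 CPM in Control. Skeletal muscle markers summed to 15.2, 168.9 and 25.9 CPM in Combined and 608.1, 359 and 38.4 CPM in Active IKKβ. In Stat3 loss they summed to 14.6, 638.7 and 1106 CPM, and in Control to 48.5, 172 and 3.96 CPM. No fit left out all libraries rich in muscle transcripts, and their part in the results was not tested. Stomach transcripts stood at 1709 CPM in Active IKKβ replicate 1, at 113 CPM in Stat3 loss replicate 3 and at 18.7 CPM in Stat3 loss replicate 1, against 1.7 CPM at most elsewhere. The edgeR changes of the members are also given without the first 2 of these libraries. Levels, ratios and the changes of all other genes are given only with both in.

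Across both Stat3 backgrounds, 5 of the 10 genes were higher with active IKKβ: H2-K1, B2m, Tap2, Psmb8 and Nlrc5. The comparison averages Active IKKβ minus Control and Combined minus Stat3 loss, 6 libraries against 6, by edgeR's quasi-likelihood test with Benjamini-Hochberg adjustment over all genes, and a call is an adjusted p under 0.05. No member was lower. Of all genes tested, 2.12% were called higher and 2.72% in either direction. The median of the 10 log2 fold changes was 0.66, against 0.00 over all genes. At an unadjusted p under 0.05 there were 6 of the 10, against 15.5% of all genes. The increases took in 1 heavy chain of 2, the light chain, 1 TAP gene of 2, 1 immunoproteasome subunit of 3 and the transactivator.

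**Figure D1:**
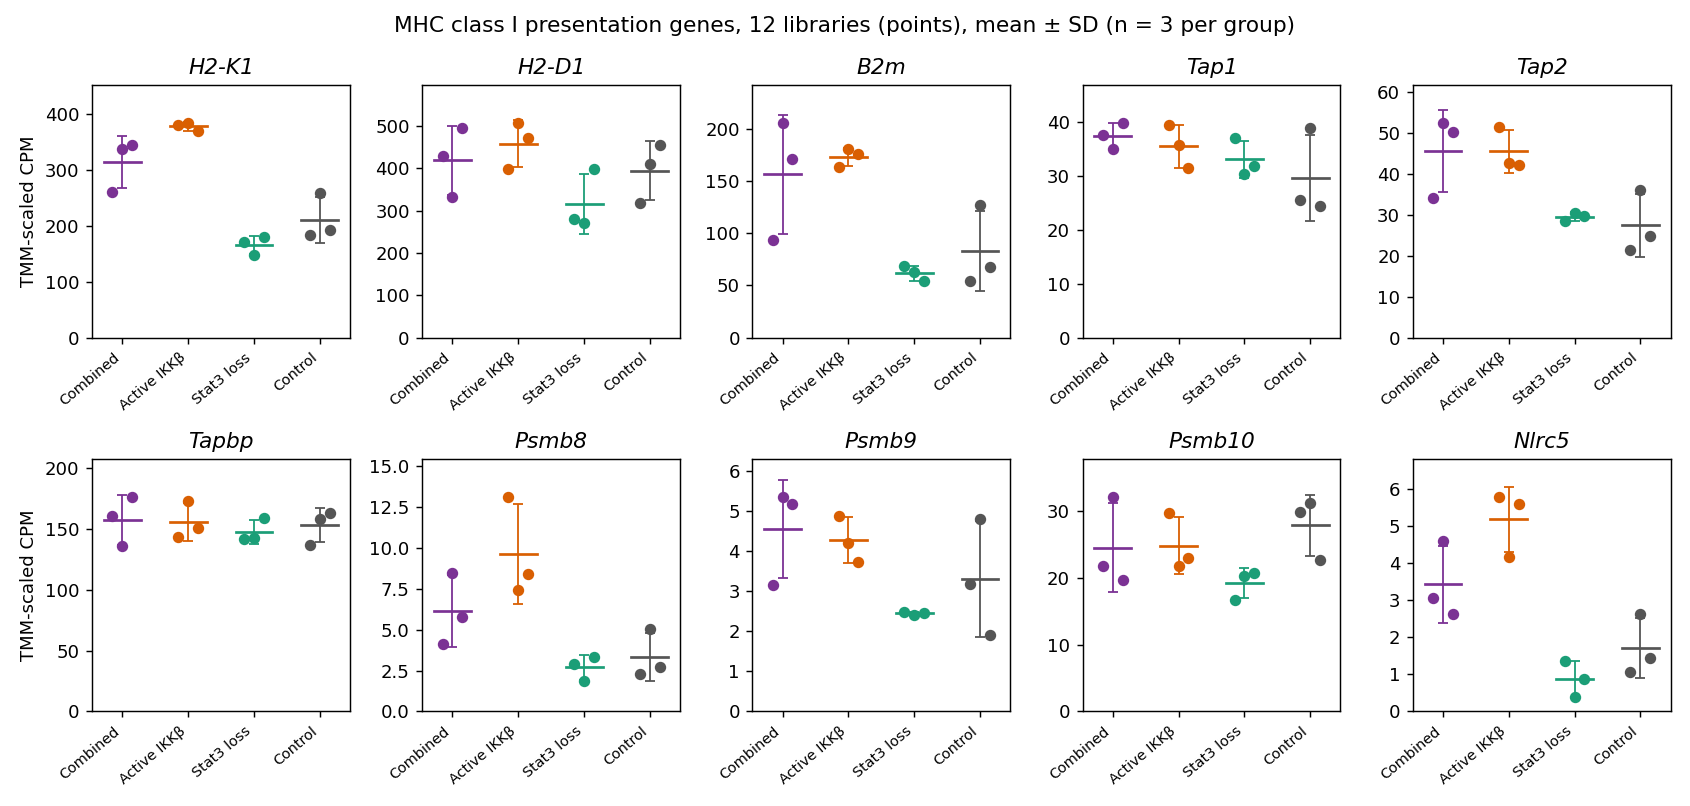
Level of each of the 10 genes (TMM-scaled CPM, linear axis from 0, one panel a gene) in the 3 libraries of each group, with points for libraries and bars for the mean and SD. H2-K1 lies between 260.0 and 382.9 CPM in all 6 libraries with active IKKβ and at 258.5 CPM or less in the 6 without, a separation that holds on the TMM scale and not with library totals, while for Tapbp and Psmb10 the libraries with and without active IKKβ overlap.

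H2-K1, the classical heavy chain of the K locus, had 260.0, 336.5 and 344.6 CPM in Combined, 380.9, 382.9 and 368.9 CPM in Active IKKβ, 170.4, 148.7 and 180.0 CPM in Stat3 loss, and 183.0, 258.5 and 192.0 CPM in Control. On the TMM scale every library with active IKKβ was above every library without it, though Combined replicate 1 exceeded Control replicate 2 by little. Relative to library totals alone, a scaling tried after seeing the data, Combined replicate 1 had 243 CPM and Control replicate 2 had 276 CPM, so the groups overlapped. H2-K1 was 1.84-fold higher across both backgrounds (log2 0.88 ± 0.11 SE, edgeR adjusted p = 0.00197). Its call remained in each of the 12 fits that left out 1 library, with adjusted p of 0.00143 to 0.00964.

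H2-D1, the classical heavy chain of the D locus, had 428.3, 332.4 and 494.7 CPM in Combined, 397.3, 505.8 and 472.0 CPM in Active IKKβ, 280.9, 270.5 and 397.7 CPM in Stat3 loss, and 317.3, 411.2 and 455.6 CPM in Control. The groups overlapped, and Control replicate 3 lay above 3 of the 6 libraries with active IKKβ. The log2 difference across both backgrounds was 0.31, with a 95% interval of -0.01 to 0.63 (edgeR adjusted p = 0.343). H2-K1 counts came to 60.7%, 101.2% and 69.7% of the H2-D1 counts in Combined and 95.9%, 75.7% and 78.2% in Active IKKβ, against 60.7%, 55.0% and 45.3% in Stat3 loss and 57.7%, 62.9% and 42.2% in Control. In Combined, Active IKKβ and Stat3 loss the ratio was highest in the library with the lowest sum of squamous markers. In Control it was lowest in the library with the highest sum. This ratio was chosen after its values were seen, and neither it nor its order beside the squamous markers was tested.

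B2m encodes β2-microglobulin, without which heavy chains do not reach the surface. It had 93.7, 205.0 and 170.7 CPM in Combined, 162.9, 180.2 and 175.5 CPM in Active IKKβ, 68.4, 63.1 and 54.1 CPM in Stat3 loss, and 54.3, 126.7 and 67.9 CPM in Control. The Active IKKβ libraries lay close together, while Control replicate 2 was high for its group, above Combined replicate 1. B2m was 2.30-fold higher with active IKKβ across both backgrounds (log2 1.20 ± 0.23, edgeR adjusted p = 0.0189).

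Tap1 and Tap2 together form the peptide transporter. Tap2 had 34.04, 52.3 and 50.2 CPM in Combined, 51.6, 42.8 and 42.2 CPM in Active IKKβ, 28.4, 30.5 and 29.7 CPM in Stat3 loss, and 21.4, 36.2 and 24.8 CPM in Control. Of the libraries with active IKKβ, Combined replicate 1 alone lay below a library without it, Control replicate 2. Tap2 was 1.60-fold higher across both backgrounds (log2 0.68 ± 0.15, edgeR adjusted p = 0.0334). Tap1 had 37.7, 35.0 and 39.8 CPM in Combined, 39.4, 35.8 and 31.4 CPM in Active IKKβ, 37.0, 30.4 and 32.0 CPM in Stat3 loss, and 25.6, 38.9 and 24.5 CPM in Control. Its groups overlapped and its log2 difference was 0.22, with an interval of -0.05 to 0.49 (edgeR adjusted p = 0.436). Tapbp, which encodes tapasin, ranged from 135.5 to 175.8 CPM in Combined, 143.1 to 173.1 in Active IKKβ, 141.7 to 158.8 in Stat3 loss and 137.0 to 163.1 in Control. Its log2 difference was 0.06, with an interval of -0.14 to 0.26, the narrowest of the 10.

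Psmb8, Psmb9 and Psmb10 encode the catalytic subunits that replace Psmb5, Psmb6 and Psmb7 when immunoproteasomes form. Psmb8 had 4.16, 8.48 and 5.76 CPM in Combined, 13.1, 7.40 and 8.38 CPM in Active IKKβ, 2.93, 1.85 and 3.33 CPM in Stat3 loss, and 2.29, 5.02 and 2.71 CPM in Control. Of the libraries with active IKKβ, Combined replicate 1 alone lay below a library without it, again Control replicate 2. Psmb8 was 2.56-fold higher across both backgrounds (log2 1.36 ± 0.28, edgeR adjusted p = 0.0264). Psmb9 had 3.15, 5.34 and 5.18 CPM in Combined, 4.87, 4.21 and 3.74 CPM in Active IKKβ, 2.48, 2.42 and 2.45 CPM in Stat3 loss, and 3.19, 4.81 and 1.91 CPM in Control. Its log2 difference of 0.64 had an interval of 0.11 to 1.16 and did not pass adjustment (edgeR adjusted p = 0.220). Psmb10 ranged from 19.6 to 32.0 CPM in Combined, 21.8 to 29.7 in Active IKKβ, 16.6 to 20.7 in Stat3 loss and 22.6 to 31.1 in Control, with a log2 difference of 0.09 and an interval of -0.23 to 0.41.

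Set against the constitutive subunit in the same library, a ratio that library scaling does not enter, the subunits differed again. Psmb8 counts came to 8.59%, 22.2% and 12.8% of Psmb5 counts in Combined and 38.2%, 17.8% and 19.8% in Active IKKβ, against 9.62%, 5.36% and 7.77% in Stat3 loss and 5.87%, 10.6% and 6.51% in Control. The ratio was 2.41-fold higher with active IKKβ across both backgrounds (two-sided exact permutation within Stat3 background, p = 0.01, adjusted over the 3 ratios 0.0225). Psmb9 came to 1.47%, 2.41% and 2.62% of Psmb6 in Combined and 2.65%, 2.25% and 2.10% in Active IKKβ, against 1.46%, 1.22% and 1.11% in Stat3 loss and 1.43%, 2.17% and 0.925% in Control. That ratio was 1.65-fold higher (exact permutation p = 0.015, adjusted 0.0225), a call lost at an adjusted p of 0.0525 without Active IKKβ replicate 1 or Stat3 loss replicate 3. The Psmb10 to Psmb7 ratio differed by 0.20 on the log2 scale (exact permutation p = 0.415). The smallest p that the 400 arrangements can give is 0.005. With libraries rearranged only within pairs of the same replicate number, the adjusted p was 0.0938 for both Psmb8 and Psmb9, and both calls were lost. Far fewer than 400 arrangements exist there, so the smallest possible p is higher and a call is harder to reach. The constitutive genes themselves gave no call in the edgeR test, with log2 differences of 0.09 for Psmb5, -0.07 for Psmb6 and -0.11 for Psmb7.

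**Figure D2:**
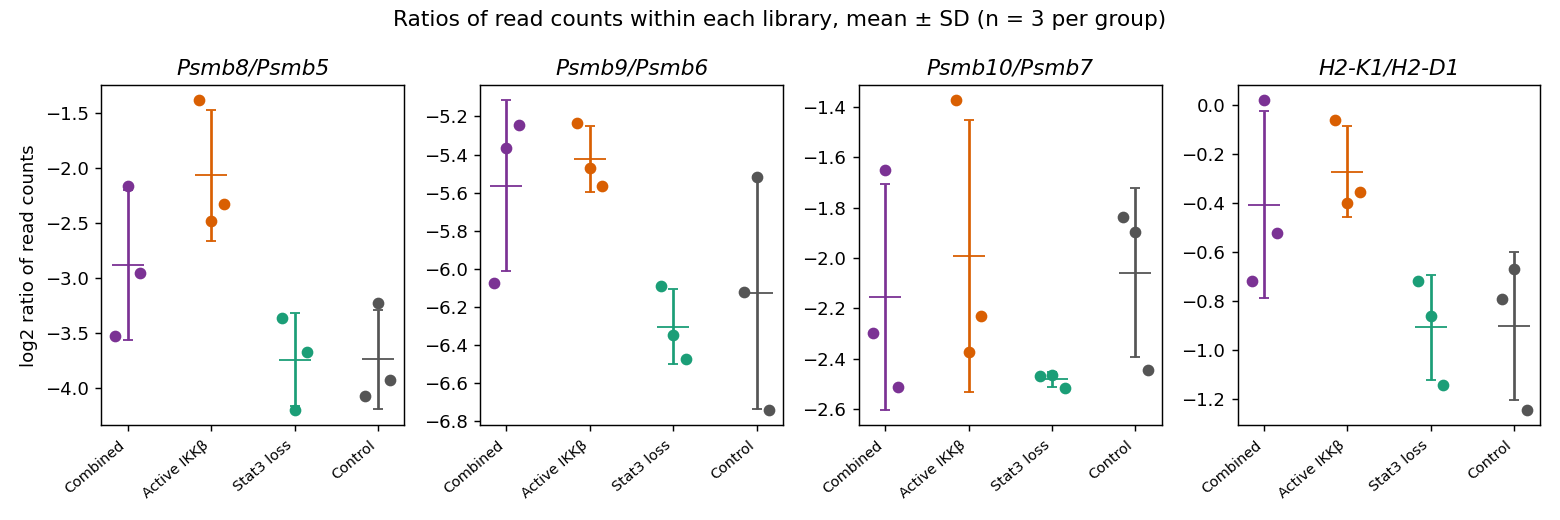
Log2 ratio of the counts of each immunoproteasome subunit to those of the constitutive subunit it replaces, in the same library, and of H2-K1 to H2-D1, with 1 point a library and the mean and SD of each group (axes do not start at 0). The Psmb8 to Psmb5 ratio averages -2.89 in Combined and -2.07 in Active IKKβ, against -3.75 in Stat3 loss and -3.74 in Control.

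Nlrc5, the transactivator of class I genes, had few reads in every library. Its counts were 61, 79 and 50 in Combined, 122, 86 and 130 in Active IKKβ, 30, 9 and 16 in Stat3 loss, and 19, 50 and 38 in Control. As CPM these were 3.05, 4.59 and 2.62 in Combined, 5.77, 4.16 and 5.59 in Active IKKβ, 1.35, 0.395 and 0.873 in Stat3 loss, and 1.06, 2.61 and 1.45 in Control. On the TMM scale every library with active IKKβ was above every library without it, but Combined replicate 3 and Control replicate 2 all but touched, and relative to library totals they stood at 2.38 and 2.79 CPM. Nlrc5 was 3.43-fold higher across both backgrounds (log2 1.78 ± 0.33, edgeR adjusted p = 0.0157), the largest fold of the 10. H2-K1 and Nlrc5 were the 2 members whose 6 libraries with active IKKβ lay wholly above the 6 without in TMM-scaled CPM, against 1.52% of all genes, and with library totals 0 members did.

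Of these 5 calls, those of B2m, Tap2 and Psmb8 were near the threshold and were lost in some fits without 1 library. Over those fits their log2 changes ran from 1.08 to 1.42, 0.60 to 0.80 and 1.20 to 1.56. In the fits that left out 1 library, Nlrc5 stayed called in all 12 (adjusted p 0.0155 to 0.0444). B2m lost its call without Active IKKβ replicate 2, Active IKKβ replicate 3, Stat3 loss replicate 2 or Combined replicate 3 (adjusted p up to 0.0569). Psmb8 lost its call in 6 of the 12: without Active IKKβ replicate 3, Stat3 loss replicate 1, Stat3 loss replicate 2, Combined replicate 2, Combined replicate 3 or Control replicate 1 (up to 0.0763). Tap2 kept its call only without Combined replicate 1 or Control replicate 2 (0.0128 to 0.0932 over the 12). Without both libraries rich in stomach transcripts, H2-K1 alone passed (log2 0.90, adjusted p = 0.0134), and the other 4 had log2 changes of 1.17 for B2m, 0.62 for Tap2, 1.29 for Psmb8 and 1.73 for Nlrc5, with adjusted p of 0.0567 to 0.0971.

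Per kilobase of annotated exon, a scale on which genes can be compared, the classical heavy chains and B2m had the highest levels in each group and Nlrc5 the lowest. The length is the union of all annotated exons of a gene, so the order of neighbours depends on the transcripts annotated. In Active IKKβ the means were 201 ± 10.4 CPM per kb for B2m, 178 ± 21.5 for H2-D1, 128.5 ± 2.57 for H2-K1, 42.9 ± 4.29 for Tapbp and 14.5 ± 2.50 for Psmb10 (SD, n = 3). They were 12.04 ± 1.40 for Tap2, 6.49 ± 0.732 for Tap1, 2.85 ± 0.901 for Psmb8, 1.17 ± 0.155 for Psmb9 and 0.609 ± 0.104 for Nlrc5. B2m and H2-D1 did not differ beyond their spread there, nor did Psmb10 and Tap2. In Combined the first 3 were B2m at 182 ± 66.3, H2-D1 at 162 ± 31.7 and H2-K1 at 107 ± 15.9, and in Stat3 loss they were H2-D1 at 123 ± 27.4, B2m at 71.9 ± 8.39 and H2-K1 at 56.6 ± 5.46. In Control the order began with H2-D1 at 153 ± 27.4, followed by B2m at 96.5 ± 44.8 and H2-K1 at 71.9 ± 14.0, neighbours that did not differ beyond their spread. Tapbp stood at 42.1 ± 3.81, Psmb10 at 16.3 ± 2.67, Tap2 at 7.26 ± 2.05 and Tap1 at 5.42 ± 1.47, and the last 2 overlapped. Psmb8 at 0.987 ± 0.434 and Psmb9 at 0.902 ± 0.398 overlapped too, and Nlrc5 came last at 0.201 ± 0.0951.

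In the comparison without Stat3 loss, Active IKKβ against Control called 1 member, H2-K1 (log2 0.84 ± 0.16, edgeR adjusted p = 0.0365), where 0.955% of all genes were called and 0.899% called higher. In TMM-scaled CPM the libraries of 5 members lay wholly above Control (H2-K1, B2m, Tap2, Psmb8 and Nlrc5), against 9.34% of all genes (4 members with library totals), and 5 had an unadjusted p under 0.05, against 13%. Nlrc5 at 1.60 ± 0.45 and Psmb8 at 1.53 ± 0.39 had the largest log2 changes but adjusted p of 0.181 and 0.126. B2m was at 1.06 ± 0.32 (adjusted p = 0.202) and Tap2 at 0.73 ± 0.21 (adjusted p = 0.181). H2-K1 lost its call without any 1 of the Active IKKβ libraries and without Control replicate 1 or 3, and kept it without Control replicate 2 (adjusted p 0.036 to 0.186 over the 6). It also lost it without both stomach-rich libraries (log2 0.84, adjusted p = 0.0903).

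Within Stat3L/L epithelium, Combined against Stat3 loss likewise called H2-K1 alone (log2 0.91 ± 0.16, edgeR adjusted p = 0.0397), where 0.46% of all genes were called and 0.41% called higher. Cre and floxed Stat3 were in both groups here. In TMM-scaled CPM the libraries of 6 members lay wholly above Stat3 loss (the same 5 and Psmb9), against 6.06% of all genes, and 6 had an unadjusted p under 0.05, against 8.96%. Nlrc5 was at 1.96 ± 0.47 and B2m at 1.34 ± 0.32, both with an adjusted p of 0.14. H2-K1 lost its call without any 1 of the Stat3 loss libraries and without Combined replicate 2 or 3, and kept it without Combined replicate 1 (adjusted p 0.0204 to 0.21 over the 6), and without that library B2m was called as well (0.0437). Without both stomach-rich libraries H2-K1 was at 0.96 with an adjusted p of 0.12. Combined against Control called no member, where 0.884% of all genes were called and 5 of the 10 had an unadjusted p under 0.05, against 11.5%. In TMM-scaled CPM the libraries of H2-K1 and Nlrc5 lay wholly above Control, 2 of 10 against 7.2% of all genes, and with library totals those of 0 members did. There H2-K1 was at 0.57 ± 0.16 (adjusted p = 0.161), Tap2 at 0.73 ± 0.21 (adjusted p = 0.164) and B2m at 0.92 ± 0.32 (adjusted p = 0.274). DESeq2 called H2-K1 and Tap2 in that comparison.

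**Figure D3:**
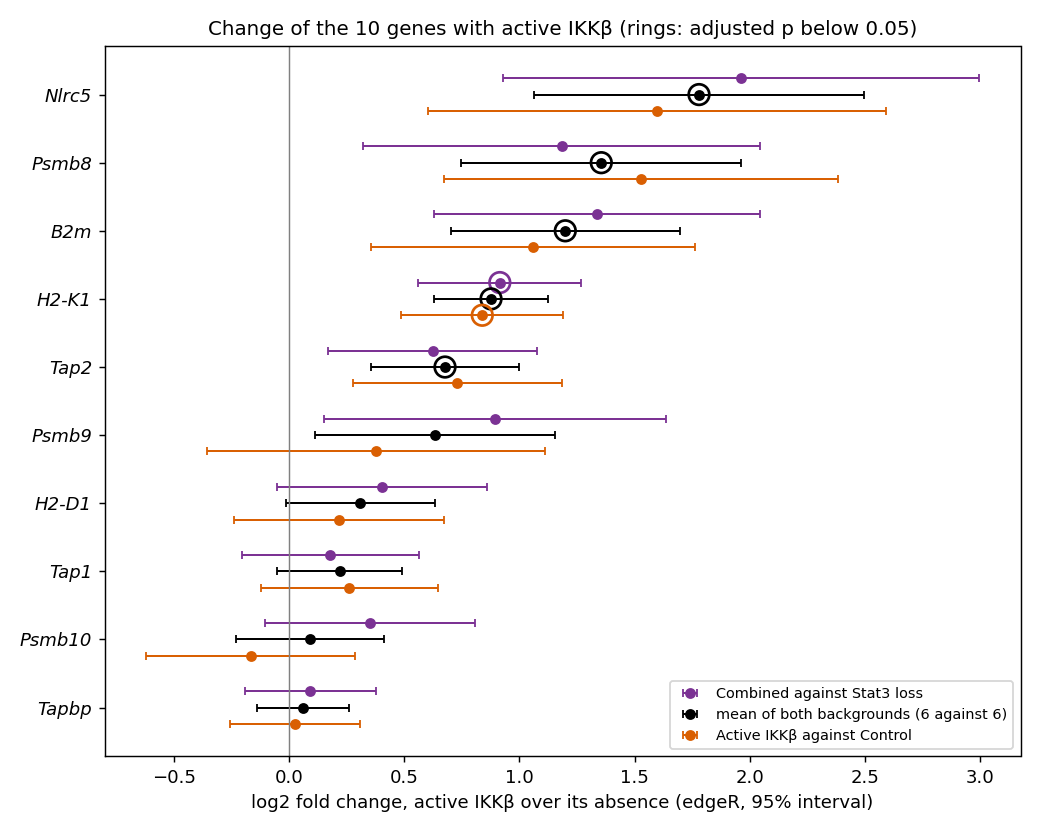
Log2 fold change of each of the 10 genes with its 95% interval with active IKKβ, for Combined against Stat3 loss, Active IKKβ against Control and their mean, with a ring where the adjusted p is under 0.05. H2-K1, B2m, Tap2, Psmb8 and Nlrc5 are ringed in the mean, and H2-K1 in both single backgrounds.

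Neither comparison for Stat3 loss called a member. Stat3 loss and Control both carry Stat3L/L, and they differ in Cre and in the Ikk2ca allele. Stat3 loss against Control called 0 of 10, as it called 0% of all genes in edgeR, with 7.5% at an unadjusted p under 0.05 and 106 genes called by DESeq2, none of them a member. Psmb10 had the smallest unadjusted p of the 10, 0.0254 (log2 -0.53 ± 0.21, adjusted p = 0.593), and in TMM-scaled CPM its 3 Stat3 loss libraries lay wholly below Control, as did those of H2-K1 (-0.34 ± 0.16), against 6.1% of all genes. With library totals the groups overlapped for both genes. Nlrc5 was at -0.96 ± 0.47 (interval -1.99 to 0.07). Combined against Active IKKβ also called 0 of 10 and 0% of all genes, with 9.88% at an unadjusted p under 0.05, none of them a member, and 131 genes called by DESeq2. Its log2 changes ran from -0.65 for Psmb8 (interval -1.49 to 0.18) to 0.09 for Psmb9, and H2-K1 was at -0.27 (interval -0.62 to 0.08) with its Combined libraries wholly below in TMM-scaled CPM, against 7.54% of all genes, and overlapping with library totals.

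Whether the change with active IKKβ differed between the Stat3 backgrounds was tested as an interaction, and no member was called, nor any gene in edgeR, with 4.66% of all genes at an unadjusted p under 0.05, none of them a member, and 6 called by DESeq2. This does not show that the changes were alike. The differences of log2 changes ran from -0.35 ± 0.55 for Psmb8 to 0.52 ± 0.47 for Psmb9 and 0.52 ± 0.29 for Psmb10. That for H2-K1 was 0.08, with an interval of -0.42 to 0.57, and that for Nlrc5 0.37, with an interval of -1.03 to 1.76. For Nlrc5 differences of more than 1 on the log2 scale in either direction lie within the interval.

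The rest of the pathway moved unevenly in the average over both backgrounds. Of 23 further class I heavy chain genes in the files, 12 were tested and 5 were called higher, with a median of 0.83 and none lower. Of the 5, H2-M2, H2-M5 and H2-Q6 passed the filter on low counts through libraries with active IKKβ. A lower call was hardly open to such genes, so the 5 calls and the median do not measure the direction of the list. H2-Q4, a nonclassical Qa-region chain, had 13.4, 19.6 and 16.7 CPM in Combined and 24.4, 16.9 and 16.2 CPM in Active IKKβ, against 9.10, 5.10 and 5.51 CPM in Stat3 loss and 5.82, 9.30 and 7.47 CPM in Control (log2 1.34 ± 0.20, edgeR adjusted p = 0.00437). H2-M2 had 21, 32 and 56 counts in Combined and 36, 33 and 38 in Active IKKβ, against 0 in each Stat3 loss library and 0, 1 and 0 in Control (edgeR adjusted p = 0.000456), so its fitted fold depends on the count added to zeros and is not given. H2-M5 (edgeR adjusted p = 0.0151), H2-Q6 (log2 2.27 ± 0.52, adjusted p = 0.0445) and H2-T10 (1.40 ± 0.30, adjusted p = 0.0311) were the others. They too had few reads. H2-M5 had 7 to 30 counts with active IKKβ and 0 to 6 without. The same ranges were 19 to 40 and 1 to 15 for H2-Q6, and 20 to 52 and 9 to 21 for H2-T10. H2-Q4 shares sequence with H2-K1, and H2-Q6 with H2-D1, so counts may be misplaced among them. Such sharing was not recorded for H2-M2, H2-M5 and H2-T10, where it remains possible. None of the 8 peptide loading and trimming genes was called (median 0.13), of which the chaperone Hspa5 was highest at 0.54 ± 0.21. None of the 4 proteasome activator and assembly genes (median 0.03) or of the 14 constitutive core genes (median -0.05) was called.

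Among 19 regulators of class I genes, 3 were called higher and none lower. Relb, an NF-κB subunit, had 21.8, 38.7 and 36.9 CPM in Combined and 28.3, 28.7 and 25.0 CPM in Active IKKβ, against 7.62, 11.7 and 9.93 CPM in Stat3 loss and 11.9, 10.9 and 9.79 CPM in Control (log2 1.53 ± 0.16, edgeR adjusted p = 0.000429). Nfkbia, the NF-κB inhibitor and target, was at 1.21 ± 0.12 (adjusted p = 0.000323) and Nfkb2 at 0.86 ± 0.11 (adjusted p = 0.00197). The interferon-side regulators Irf1 at 0.07 ± 0.18 and Irf9 at -0.54 ± 0.17 were not called, nor was Rfx5 at 0.01 ± 0.14, a partner of NLRC5. Ifng, the gene of interferon-γ, had 0 counts in all 12 libraries. Of 12 interferon and receptor genes 6 were tested, and Ifngr2, a chain of the interferon-γ receptor, was called at 0.70 ± 0.14 (edgeR adjusted p = 0.0241). Of 26 interferon-stimulated genes 22 were tested, none was called higher and 1 lower (Xaf1, log2 -1.40 ± 0.29, adjusted p = 0.0262), with 3 above 0 and a median of -0.47. Isg15 was at -1.52 ± 0.40 (adjusted p = 0.0808).

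**Figure D4:**
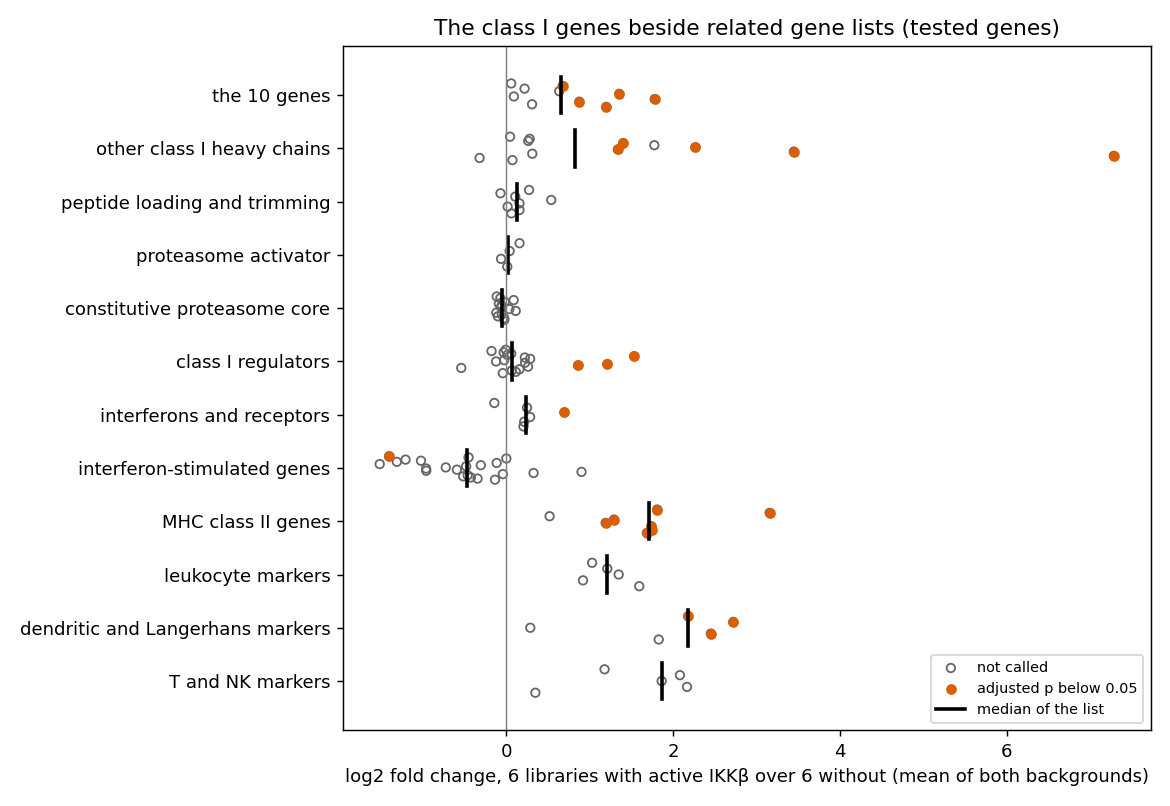
Log2 fold changes of the tested genes of each list in the mean over both Stat3 backgrounds, with 1 point a gene, filled where the adjusted p is under 0.05, and a bar at the list's median. The class I members and other heavy chains have medians of 0.66 and 0.83, the constitutive proteasome core -0.05 and the interferon-stimulated genes -0.47. Among the other heavy chains, H2-M2, H2-M5 and H2-Q6 passed the filter on low counts through libraries with active IKKβ.

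Leukocyte transcripts were highest in the Active IKKβ libraries, while those of Combined overlapped with Stat3 loss and Control. In bulk samples, more cells of a type and more RNA per cell cannot be told apart. The 5 leukocyte markers (Ptprc, Coro1a, Laptm5, Cd53 and Cd52) summed to 14.97, 47.3 and 29.5 CPM in Combined and 69.8, 55.1 and 50.7 CPM in Active IKKβ, against 17.0, 19.6 and 6.27 CPM in Stat3 loss and 14.5, 33.5 and 16.0 CPM in Control. None of the 5 was called over both backgrounds (log2 0.92 to 1.59, median 1.21). At an unadjusted p under 0.05 in the edgeR test there were 4 of the 5, against 15.5% of all genes. The 7 dendritic and Langerhans cell markers summed to 7.71, 27.3 and 16.9 CPM in Combined and 36.4, 36.95 and 33.97 CPM in Active IKKβ, against 5.18, 4.44 and 2.40 CPM in Stat3 loss and 6.93, 10.6 and 4.88 CPM in Control. Of these, 5 were tested and 3 were called higher: Cd207, the langerin gene, at 2.45 ± 0.36 (edgeR adjusted p = 0.00427), Itgax at 2.18 ± 0.32 (adjusted p = 0.00432) and Flt3 at 2.72 ± 0.51 (adjusted p = 0.0184). Of 10 class II genes 8 were tested and 7 were called higher, with a median of 1.71, among them Ciita at 1.74 ± 0.29. Flt3 and the class II gene H2-DMb2 passed the filter on low counts through libraries with active IKKβ, so a lower call was hardly open to them. T and NK cell markers, 5 of 9 tested and none called, summed to 1.201 to 3.89 CPM in Combined and 3.40 to 8.28 in Active IKKβ, against 0.709 to 1.54 in Stat3 loss and 1.51 to 5.12 in Control. At these low levels, 3 of the 5 tested had an unadjusted p under 0.05, and their median log2 change was 1.86 over the 5.

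Control replicate 2 had the most leukocyte transcripts of its group, and the highest level of 8 of the 10 members in it. Replicate 1 of that group had the fewest, and the lowest level of 7. In Combined, replicate 2 had the most and the highest level of 6, and replicate 1 the fewest and the lowest level of 5. In Active IKKβ, replicate 1 had the most and the highest level of 6. Replicate 3 there had the fewest and the lowest level of 4, against 3 for each other replicate. In Stat3 loss the order ran the other way. Its replicate 2 had the most leukocyte transcripts and the lowest level of 6 of the 10, and replicate 3 the fewest and the highest level of 5. The same counts were not taken over all genes. The 7 macrophage markers summed to 34.6 to 69.9 CPM in Combined and 89.2 to 109.7 in Active IKKβ, against 28.4 to 74.3 in Stat3 loss and 39.3 to 82.7 in Control, and none was called (7 of 7 above 0, median 0.11). The 5 endothelial markers summed to 24.1 to 74.2 CPM in Combined and 36.5 to 165.6 in Active IKKβ, against 31.4 to 39.7 in Stat3 loss and 44.5 to 85.1 in Control, and none was called (5 of 5 above 0, median 0.41). The part of leukocytes and other cells in the increases of the class I genes was not tested.

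**Figure D5:**
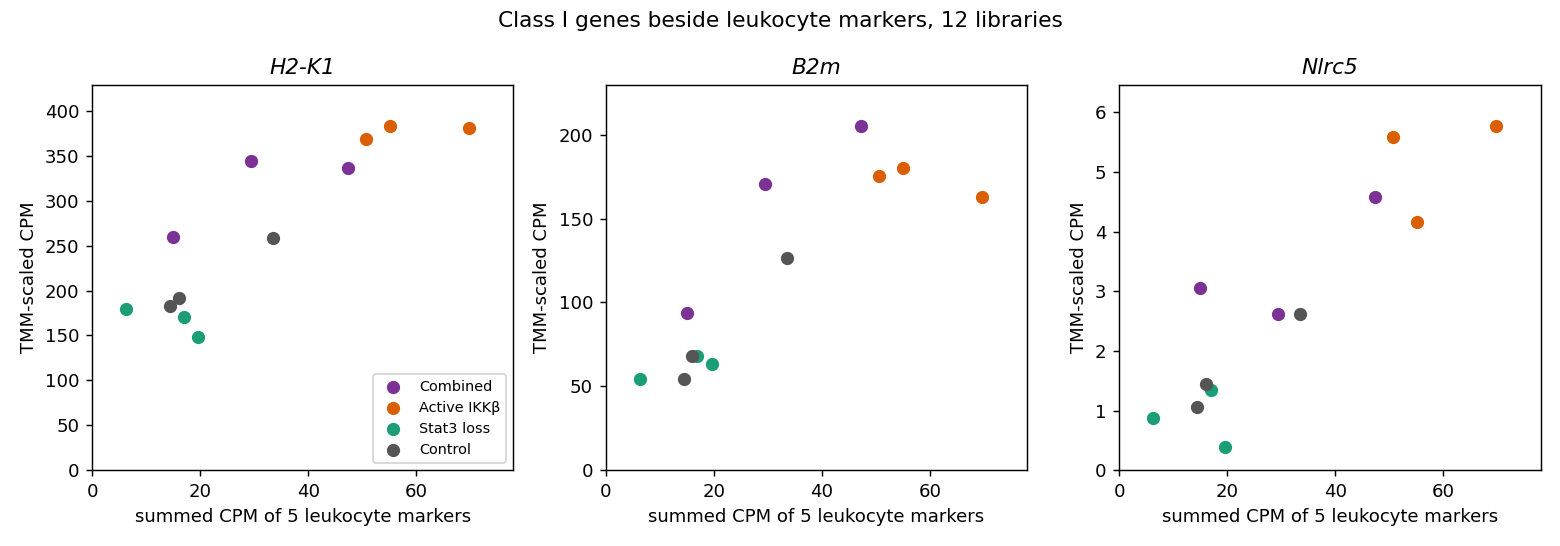
Level of H2-K1, B2m and Nlrc5 (TMM-scaled CPM) against the summed level of the 5 leukocyte markers in the same library, 12 points coloured by group, both axes from 0. The Active IKKβ libraries, at 50.7 to 69.8 CPM of leukocyte markers, lie to the right, and Combined replicate 1, at 14.97 CPM, lies among the libraries without active IKKβ on that axis.

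The members did not all follow one another. Over the 12 libraries, the Pearson correlation of each gene's log2 CPM with the mean standardised log2 CPM of the other members was 0.96 for H2-K1, 0.93 for B2m, 0.91 for Psmb8, 0.88 for Nlrc5, 0.86 for Tap2 and 0.84 for Psmb9. It was 0.58 for H2-D1, 0.57 for Tap1, 0.25 for Psmb10 and 0.23 for Tapbp. Tap1 and Psmb9, which are read in opposite directions from the stretch shown above, were thus at 0.57 and 0.84. The genes outside the set whose pattern was most like the mean of all 10 members were Slfn2 (r = 0.94), Krt17 (0.93), Vnn1 (0.92), Pion (0.92), Clstn3 (0.92) and Pkib (0.91), over the same 12 libraries. Slfn2, a Schlafen family gene, had 4.16, 7.38 and 7.17 CPM in Combined and 9.32, 10.01 and 10.2 CPM in Active IKKβ, against 1.85, 2.20 and 1.91 CPM in Stat3 loss and 1.79, 4.55 and 1.56 CPM in Control. All points share their libraries and the 4 groups, so these correlations are descriptions and carry no p-value.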

How the data were processed

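RNA-seq was deposited as 1 table of raw read counts per gene for each of 12 libraries. The submitters' processing notes name cutadapt 1.13, STAR, HTSeq 0.6.1p1 and DESeq2, and the build mm10. Strand, annotation and parameters are not given in the sources used here. From the deposited counts, edgeR 4.0.16 (R 4.3.3, limma 3.58.1) was run: filterByExpr kept 14134 of 23337 symbols, libraries were scaled by TMM, and 1 robust quasi-likelihood fit of the 4 groups gave each comparison, with Benjamini-Hochberg adjustment over all genes tested and a threshold of 0.05. DESeq2 1.42.0 was an alternative. SE is the log2 change divided by the root of F. Ratios had 0.5 added to each count. The scripts were tested on simulated counts. Depth was 14816468 to 30188363 counts per library, and no 2 libraries of a group agreed within sampling noise (lowest chi-square per degree of freedom 26.1). Positions and exon lengths come from GENCODE M21, and promoters from RefSeq (GRCm38.p6).

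Libraries were grouped by the genotype in their labels. All 10 members are named in every comparison. From each other list, up to 6 genes with the smallest p in the average over both backgrounds could be named, plus Psmb5, Psmb6, Psmb7, Psme1, Psme2, Irf1, Rfx5, Ifng, Ptprc, Nfkbia and Ciita, and 1 gene that is not reported here. The members and lists were chosen with earlier results of these data known. Of 188 list entries 186 were found in the files, 4 under an older symbol.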

Additional observations from a re-analysis of the deposited data

How the results depend on the processing

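Which members passed depended on the tool and the libraries, while the direction of H2-K1, B2m, Tap2, Psmb8 and Nlrc5 in the average over both backgrounds was the same in all 20 alternatives. There the count of 5 members called fell to 2 with library totals in place of TMM (H2-K1 and Nlrc5), to 1 without both stomach-rich libraries, and to between 2 and 5 with 1 library left out. For Active IKKβ against Control, 1 became 0 with library totals, with only the 2 groups fitted and without the stomach-rich libraries, 5 with DESeq2, and 0 to 1 with 1 library left out. For Combined against Stat3 loss, 1 became 0 under the same 3 settings, 3 with DESeq2, and 0 to 2 with 1 left out. For Combined against Control, 0 became 2 with DESeq2. Over all genes, DESeq2 called 860 where edgeR called 384 in the average, 442 against 135 in Active IKKβ against Control, 297 against 65 in Combined against Stat3 loss, and 476 against 125 in Combined against Control. Library totals called 217, 66, 29 and 53 in the same 4 comparisons, and fitting only the groups compared called 61, 16 and 14 in the last 3. Without the stomach-rich libraries Active IKKβ against Control gave 83 and Combined against Stat3 loss 28. The cause was not tested. By library totals, a scaling added after seeing the data, members lying wholly above numbered 0 in the average (2 by TMM), 4 in Active IKKβ against Control (5), 6 in Combined against Stat3 loss (6, with H2-D1 in place of Tap2) and 0 in Combined against Control (2).

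Whether replicate numbers pair the libraries is not settled. Over the 4 groups, 9 of 18 same-numbered pairs were over r = 0.1 (range -0.408 to 0.454). Pairs of different numbers were not measured for comparison. For Stat3 loss with Combined all 3 pairs exceeded 0.1 (0.121 to 0.259), and with the replicate block that comparison still called H2-K1 alone (adjusted p = 0.0494), with 71 genes in all. With the replicate block the average called 5 members, the same genes, and 503 genes in all, and no member's call changed in any comparison. Rearranging the ratios within same-numbered pairs left the differences at 1.27 (Psmb8 to Psmb5) and 0.72 (Psmb9 to Psmb6). The exact permutation adjusted p was 0.0938 for both, so both calls were lost, in a test with far fewer arrangements and a higher smallest p. With 1 library left out the differences ran from 1.09 to 1.43 and from 0.57 to 0.88.

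Signs turned only for values that were not called. With library totals, Tapbp was at -0.0502 in Active IKKβ against Control, 0.0033 in Stat3 loss against Control and -0.0164 in the average, and Psmb10 at 0.0537 in Combined against Active IKKβ. In that comparison Tap2 was at -0.0032 with DESeq2 size factors, -0.0033 with DESeq2, -0.0272 with the replicate block and -0.0052 with only those groups. Without the stomach-rich libraries, Tapbp was at -0.0422 and Psmb10 at 0.13 there, and Psmb8 at 0.0919 in the interaction. With 1 library left out, values that crossed 0 ran in Active IKKβ against Control from -0.0799 to 0.0833 for Tapbp. In Combined against Control they ran from -0.0637 to 0.23 for H2-D1, -0.0542 to 0.14 for Tapbp. In Stat3 loss against Control they ran from -0.65 to 0.0187 for B2m, -0.51 to 0.11 for Psmb8, -0.0447 to 0.36 for Tap2, -0.12 to 0.0009 for Tapbp. In Combined against Active IKKβ they ran from -0.39 to 0.14 for B2m, -0.26 to 0.0106 for H2-D1, -0.26 to 0.13 for Psmb10, -0.035 to 0.32 for Psmb9, -0.003 to 0.16 for Tap1, -0.11 to 0.19 for Tap2, -0.0665 to 0.11 for Tapbp. In the interaction they ran from -0.16 to 0.56 for B2m, -0.0949 to 0.22 for H2-K1, -0.0687 to 0.84 for Nlrc5, -0.33 to 0.0417 for Tap1, -0.35 to 0.0865 for Tap2, -0.0078 to 0.17 for Tapbp. In the average they ran from -0.0292 to 0.15 for Psmb10.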
